A study of Mus musculus with 8 samples.

Results

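Transcripts of 10 genes of the HIF-1 pathway and of glycolysis were followed in mouse macrophages. The genes were taken by name from the 23366 rows of the deposited table, and all 10 were found there. They were Hif1a, Slc2a1, Hk1, Hk2, Pfkfb3, Pfkp, Ldha, Pgk1, Eno1 and Vegfa. Each had at least 1057 reads in every library, and all 10 were among the 11919 genes that passed the filter on low values. HIF-1 is a transcription factor made of an oxygen-regulated alpha subunit, encoded by Hif1a, and a constant beta subunit, encoded by Arnt. It switches on genes for glucose uptake, glycolysis and blood vessel growth. Macrophages given bacterial lipopolysaccharide (LPS) are known to shift toward glycolysis and to raise Hif1a through NF-kB, while the HIF-1 alpha protein itself is set largely by its breakdown, which RNA levels do not show.

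The cells were bone marrow-derived macrophages of C57BL/6 mice, cultured at passage 1. They were wild type or carried the Lsd1SA/SA knock-in, in which LSD1, a histone demethylase, is phosphorylation-defective per the labels. All groups had been kept without serum for 24 h, and the LPS groups then received LPS for 2 h, at a labelled dose of 1 mg/ml, a high dose whose unit could not be checked. The 4 groups were untreated wild type, wild type with LPS, untreated knock-in and knock-in with LPS, with 2 libraries each (n = 2 for every mean ± SD). The labels give no sex or age of the mice. They do not say if the libraries of a group are separate cultures, and the p-values cover only library-to-library spread, which may be technical.

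The libraries held 40379258 to 55595160 reads, and replicates differed by a median coefficient of variation of 3.15 to 4.06% over well-read genes. Untreated wild-type and untreated knock-in libraries differed by 2.93 to 5.69%, a range that overlaps that of the replicates. Kdm1a, the gene for LSD1, stood at 33.9 and 31.1 in untreated wild type, 47.3 and 45.8 in wild type with LPS, 33.7 and 32.6 in untreated knock-in, and 39.3 and 40.4 in knock-in with LPS. A transcript level cannot test a substitution in the protein. The libraries labelled knock-in LPS stood apart. Xist, expressed from the inactive X chromosome of female cells, was at 315 to 437 in the other 6 libraries and at 0.366 and 0.212 there, while 4 genes of the Y chromosome (Uty, Kdm5d, Ddx3y and Eif2s3y) had at most 2 reads in any of those 6 and were all present in both knock-in LPS libraries. Knock-in LPS libraries therefore came from animals of another sex than the rest. Whether an exchange of samples or labels lies behind this was not tested, so each value given for knock-in with LPS is that of the libraries labelled so. In every comparison that uses them LPS or genotype cannot be told apart from a change of animals. Tnf, an early LPS target, rose from 26.8 and 27.4 to 4039 and 3915 in wild type, and stood at 26.8 and 26.4 untreated and at 48.7 and 48.5 with LPS in the knock-in. Macrophage markers were high throughout, with a summed level over 8 of 8 markers of 13299 to 13405, 16745 to 17084, 13207 to 13932 and 11900 to 12535 in the same order of groups. Single macrophage markers differed between the genotypes with LPS, 2 being higher in the knock-in and 6 lower. Among them were Fcgr1 (log2 change 1.82) and Cd14 (-4.37). Neutrophil markers summed to 351 to 359, 747 to 767, 351 to 358 and 447 to 457 in that order of groups. B and T cell markers summed to 69.8 to 70.5, 68.3 to 71.4, 65.4 to 67.4 and 43.0 to 45.4 in that order. Only Cd79a and Cd4 of the 7 passed the filter. With LPS, Cd4 was lower in the knock-in than in wild type (-0.70) and Cd79a higher (0.54). Dendritic cell markers summed to 2.24 to 3.43, 5.20 to 6.51, 2.76 to 3.01 and 1.58 to 1.82 in that order. Erythroid markers summed to 0.494 to 1.17 over all libraries.

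HIF-1 binds the core ACGTG or GCGTG in the promoters of its targets. The letters were searched on both strands in the 250 bases before the start of each gene, taken from RefSeq promoters on GRCm38.p6 with the most upstream window where a gene had several. All 10 members matched an entry. ACGTG was present in 6 of the 10 windows (Hif1a, Slc2a1, Hk2, Pfkfb3, Ldha and Pgk1) and in 16.5% of the windows of 27025 genes. GCGTG was present in 3 of the 10 (Slc2a1, Pfkp and Eno1) and in 28.3% of all windows. The members were taken as genes of the HIF-1 pathway and glycolysis, so these shares describe them and test nothing. In Hif1a and Ldha some matches overlap, because the palindrome CACGTG holds ACGTG on each strand. The windows of Hk1 and Vegfa held neither core, which says only that these letters are not in these windows. Shown here are 4 promoters whose genes differed in their pattern over the groups. Slc2a1 rose with LPS in wild type and did not pass the test in the knock-in. Pfkfb3 was higher in the LPS libraries of both genotypes. Hk2 did not pass in wild type and was higher with LPS in the knock-in. Vegfa was highest in the knock-in LPS libraries. Capitals mark ACGTG, or CACGT where it lies on the other strand, and each sequence is written along the gene's own strand. The windows are chr4:119108495-119108744 (plus strand) for Slc2a1, chr2:11553930-11554179 (minus) for Pfkfb3, chr6:82774455-82774704 (minus) for Hk2 and chr17:46032378-46032627 (minus) for Vegfa. The marked letters begin 36 bases before the start in Slc2a1, 60 in Pfkfb3, and 226 and 52 in Hk2.
Slc2a1: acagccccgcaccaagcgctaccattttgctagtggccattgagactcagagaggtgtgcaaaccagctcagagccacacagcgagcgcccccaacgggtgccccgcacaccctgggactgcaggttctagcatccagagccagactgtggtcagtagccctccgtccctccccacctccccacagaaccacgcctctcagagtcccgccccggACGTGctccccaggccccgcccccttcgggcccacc
Pfkfb3: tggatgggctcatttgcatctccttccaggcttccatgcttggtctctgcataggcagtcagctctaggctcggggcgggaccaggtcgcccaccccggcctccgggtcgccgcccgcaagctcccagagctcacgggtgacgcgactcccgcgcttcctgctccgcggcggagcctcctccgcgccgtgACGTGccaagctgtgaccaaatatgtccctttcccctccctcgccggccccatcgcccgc
Hk2: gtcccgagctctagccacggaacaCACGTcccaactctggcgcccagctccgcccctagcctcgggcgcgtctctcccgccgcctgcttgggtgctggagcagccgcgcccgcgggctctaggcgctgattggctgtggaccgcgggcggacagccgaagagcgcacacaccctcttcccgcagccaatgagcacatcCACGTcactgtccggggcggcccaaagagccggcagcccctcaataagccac
Vegfa: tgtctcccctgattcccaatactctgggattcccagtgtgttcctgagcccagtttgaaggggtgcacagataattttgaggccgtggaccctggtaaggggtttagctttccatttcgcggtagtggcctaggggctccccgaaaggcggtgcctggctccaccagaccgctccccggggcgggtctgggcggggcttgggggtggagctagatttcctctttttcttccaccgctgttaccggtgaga

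In wild-type macrophages, 2 h of LPS raised 6 of the 10 genes (Slc2a1, Pfkfb3, Hif1a, Pfkp, Vegfa and Pgk1) and lowered 0, also at an unadjusted p under 0.05 and by edgeR and DESeq2. Of all genes tested, 26.8% were called higher and 30.7% lower by limma with a Benjamini-Hochberg adjusted p under 0.05. The members' median change was 0.43 on the log2 scale, beside -0.032 over all genes. Hk1, Hk2, Ldha and Eno1 did not pass. After quantile normalization, Hk1 (-0.30), Ldha (-0.43), Eno1 (-0.37) and Pgk1 (-0.22) were all called lower and 4 members were lower in place of 0, while Slc2a1, Pfkfb3, Hif1a, Pfkp and Vegfa were called higher under each scaling tried. Among the genes called in that comparison, the share called higher was 46.6% as deposited and 35.4% after quantile normalization.

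In the libraries labelled knock-in LPS, 6 members were higher than in untreated knock-in cells (Vegfa, Pfkfb3, Hk2, Hif1a, Ldha and Hk1) and 2 were lower (Pgk1 and Eno1). Over all genes, 28.5% were called higher and 28.3% lower. The members' median was 0.16 on the log2 scale, beside 0.016 over all genes. Slc2a1 and Pfkp, which rose in wild type, did not pass. A test of the difference between the LPS effects (the interaction in the same limma fit) passed for all 10 members, with 4 more positive in the knock-in (Vegfa, Hk2, Ldha and Hk1) and 6 more negative (Slc2a1, Pfkp, Hif1a, Pgk1, Eno1 and Pfkfb3). Of all genes, 31.8% were more positive and 31.8% more negative, so the members' 4 was close to the background in its direction. The interaction of Hk1 was lost by edgeR, DESeq2 and median-of-ratios scaling. After quantile normalization 3 members were more negative in place of 6, since Pfkfb3 and Eno1 changed sign and Pgk1 did not pass.

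**Figure D1:**
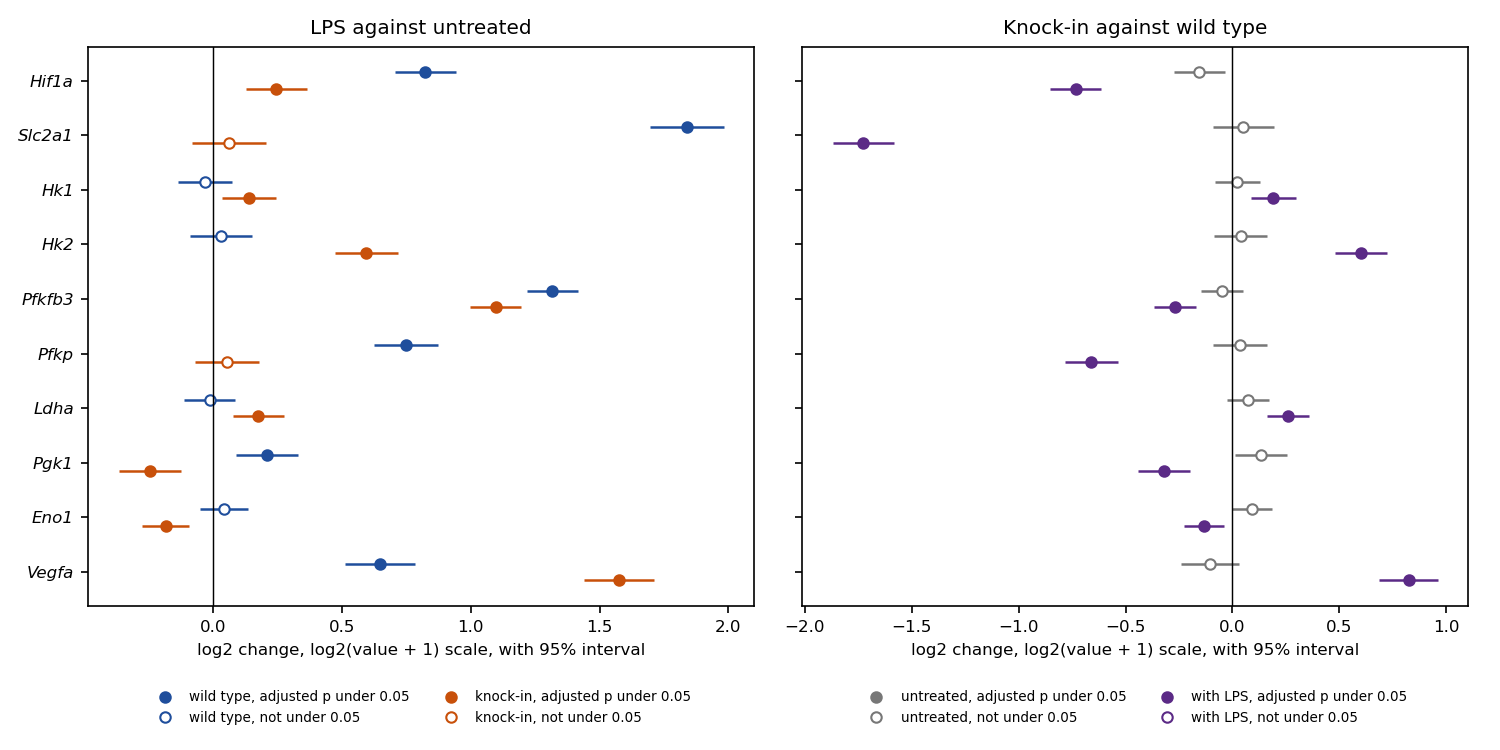
Log2 changes on the log2(value + 1) scale for the 10 genes, with 95% intervals from limma, for LPS against untreated in wild type (blue) and knock-in (orange), and for knock-in against wild type untreated (grey) and with LPS (purple). Filled points passed an adjusted p of 0.05. Slc2a1 and Pfkp passed in wild type and not in the knock-in, Hk2 in the knock-in and not in wild type, Pfkfb3 in both, and no untreated genotype difference passed. Changes after quantile normalization are not drawn. There the wild-type LPS changes of Hk1, Ldha, Eno1 and Pgk1 were below 0, and the with-LPS genotype differences of Pfkfb3, Pgk1 and Eno1 above 0.

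Hif1a, the oxygen-regulated subunit, rose with LPS in wild type and was higher, by less, in the knock-in LPS libraries than in untreated knock-in. Its level, in TMM-scaled CPM (CPM with the authors' library factors), was 72.7 and 73.8 in untreated wild type, 134 and 127 with LPS, 66.1 and 65.3 in untreated knock-in, and 82.9 and 73.7 in knock-in with LPS. The LPS libraries lay above the untreated ones in both genotypes without overlap, and knock-in LPS replicate 2 was level with untreated wild type. In wild type the LPS to untreated ratio of means was 1.78, a log2 change of 0.82 ± 0.058 (SE, limma adjusted p = 7.19e-12). In the knock-in it was 1.19, a log2 change of 0.25 ± 0.058 (limma adjusted p = 8.47e-04). That smaller change depended on 1 library, since without knock-in LPS replicate 1 it was 0.16 (limma adjusted p = 0.0525). The difference between the LPS effects was -0.58 (limma adjusted p = 1.45e-06), and -0.36 after quantile normalization.

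Slc2a1 encodes GLUT1, the transporter that brings glucose into macrophages. It stood at 25.06 and 25.04 in untreated wild type, 89.6 and 94.9 with LPS, 24.3 and 27.8 in untreated knock-in, and 27.2 and 27.2 in knock-in with LPS. Only the wild-type LPS libraries were high, and the knock-in LPS libraries lay inside the range of the untreated knock-in. The wild-type ratio was 3.68 (log2 change 1.84 ± 0.069, limma adjusted p = 2.75e-17). In the knock-in the change was 0.063 (95% interval -0.079 to 0.21, limma adjusted p = 0.452). Slc2a1 had the largest difference between LPS effects of the 10 members, -1.78 ± 0.098 (limma adjusted p = 9.50e-14). With LPS, the knock-in libraries were 0.294 times the wild type (log2 change -1.73, limma adjusted p = 7.94e-17).

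Hexokinases trap glucose in the cell by phosphorylating it. Hk1, the widely expressed form, was at 98.0 and 101 in untreated wild type, 99.7 and 95.6 with LPS, 99.5 and 103 in untreated knock-in, and 112 and 111 in knock-in with LPS. The ranges of the other 3 groups overlapped, and the knock-in LPS libraries lay above them. The wild-type change was -0.029 (95% interval -0.13 to 0.075, limma adjusted p = 0.645), and the knock-in change was 0.14 ± 0.050 (limma adjusted p = 0.0215). The knock-in call was lost after quantile normalization (0.070, limma adjusted p = 0.229) and without untreated knock-in replicate 1 (0.154), knock-in LPS replicate 1 (0.0964) or replicate 2 (0.0769), these 3 being limma adjusted p-values. The difference between the LPS effects was 0.17 (limma adjusted p = 0.0421). Its adjusted p was 0.143 by edgeR, 0.0899 by DESeq2 and 0.0845 by limma after median-of-ratios scaling, and it was 0.0504 to 0.145 by limma without wild-type untreated replicate 2, wild-type LPS replicate 2, or any 1 of the 4 knock-in libraries.

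Hk2, the inducible hexokinase and a known HIF-1 target, differed in the knock-in LPS libraries. It was at 44.6 and 44.2 in untreated wild type, 43.6 and 47.3 with LPS, 45.4 and 45.8 in untreated knock-in, and 69.6 and 69.1 in knock-in with LPS. The knock-in LPS libraries lay above all others. The change in wild type was 0.031 (95% interval -0.090 to 0.15, limma adjusted p = 0.675). In the knock-in it was 0.59 ± 0.059, a ratio of 1.52 (limma adjusted p = 7.40e-09), and the difference between the LPS effects was 0.56 (limma adjusted p = 2.98e-06). Hk2 was high in the libraries in which Xist and the Y-linked genes also differ, and their part in it was not tested.

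The step at phosphofructokinase commits sugar to glycolysis. Pfkfb3 makes fructose 2,6-bisphosphate, an activator of that step, and was higher in the LPS libraries of both genotypes. Its level was 134 and 136 in untreated wild type, 332 and 344 with LPS, 135 and 126 in untreated knock-in, and 275 and 286 in knock-in with LPS. All 4 LPS libraries lay at 275 or above, and all 4 untreated ones at 136 or below. The knock-in LPS libraries also differ in sex, whose part in the Pfkfb3 values was not tested. The wild-type ratio was 2.501 (log2 change 1.32 ± 0.048, limma adjusted p = 1.47e-17) and the knock-in ratio 2.15 (1.10 ± 0.048, limma adjusted p = 1.64e-15). The difference between them was -0.22 (limma adjusted p = 0.00717). It turned to 0.19 after quantile normalization (limma adjusted p = 0.0209), so its direction depended on the scaling. Leaving out untreated knock-in replicate 1 gave -0.17 (limma adjusted p = 0.0573).

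Pfkp, the platelet-type phosphofructokinase subunit, was at 72.1 and 74.7 in untreated wild type, 117 and 132 with LPS, 79.0 and 71.8 in untreated knock-in, and 78.8 and 77.6 in knock-in with LPS. Like Slc2a1, it was high only in the wild-type LPS libraries, and knock-in libraries with and without LPS overlapped. The wild-type ratio was 1.69 (log2 change 0.75 ± 0.060, limma adjusted p = 1.11e-10; 0.49 after quantile normalization). The knock-in change was 0.055 (95% interval -0.070 to 0.18, limma adjusted p = 0.457). The difference between LPS effects was -0.70 (limma adjusted p = 1.80e-07). Pitrm1 overlaps Pfkp on the opposite strand in the GENCODE vM21 annotation and whether the counting used strand is not given in the sources used here, so their reads may not be told apart. Pitrm1 was at 44.4 and 47.2, 48.9 and 52.9, 43.3 and 45.2, and 41.8 and 38.8 in the same order of groups, and its wild-type change of 0.15 did not pass (limma adjusted p = 0.0542). Its knock-in change was -0.13 (limma adjusted p = 0.0801). Like Pfkp, Pitrm1 was lower in the knock-in than in wild type with LPS (-0.33, limma adjusted p = 6.94e-05). Its difference between LPS effects was also negative (-0.28, limma adjusted p = 0.00975).

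**Figure D2:**
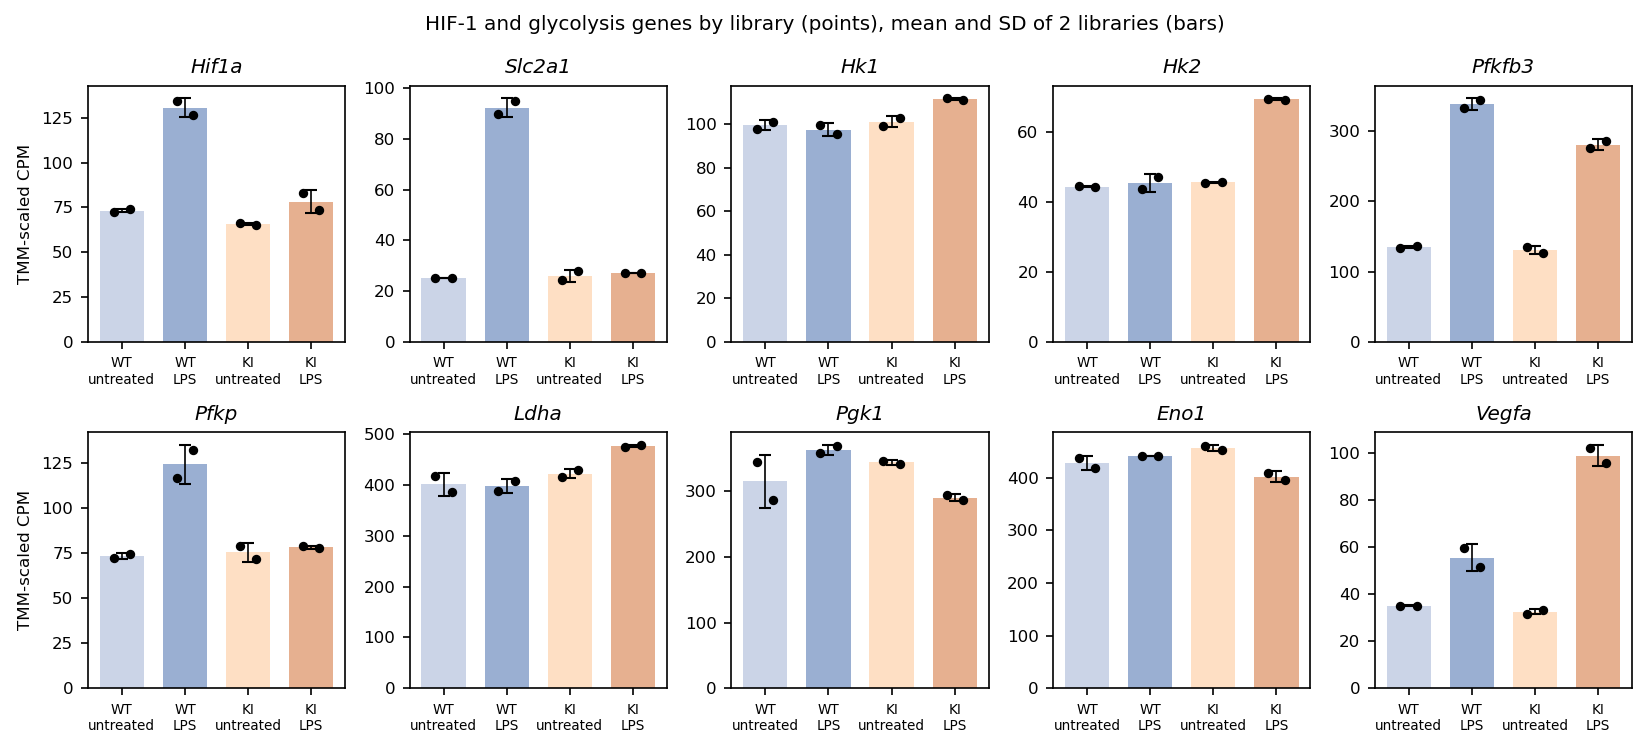
Levels of the 10 genes in TMM-scaled CPM for each library (points), with the mean (bars, from 0) and SD (error bars) of the 2 libraries of each group. WT is wild type and KI is knock-in. Slc2a1 and Pfkp stand out in wild type with LPS, Hk2 and Vegfa in knock-in with LPS, and Pfkfb3 in both LPS groups.

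The enzymes of the lower part of glycolysis were already abundant in untreated cells and moved little. Pgk1, phosphoglycerate kinase, which makes ATP, lies on the X chromosome. It was at 344 and 286 in untreated wild type, 357 and 368 with LPS, 346 and 341 in untreated knock-in, and 294 and 286 in knock-in with LPS. The 2 untreated wild-type libraries spanned most of the range of all 8. The wild-type change was 0.21 ± 0.059 (limma adjusted p = 0.00375). It was 0.078 without untreated wild-type replicate 2 (limma adjusted p = 0.196) and 0.34 without replicate 1 (limma adjusted p = 2.26e-06). Without a filter on low values its adjusted p by limma was 0.0534. In the knock-in Pgk1 fell by 0.24 (limma adjusted p = 0.00118), in libraries that also differ in sex, whose part for an X-linked gene was not tested. The difference between LPS effects was -0.45 (limma adjusted p = 5.01e-05), but -0.038 after quantile normalization (limma adjusted p = 0.729).

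Eno1, enolase 1, the enzyme before pyruvate kinase, was at 438 and 419 in untreated wild type, 441 and 442 with LPS, 461 and 453 in untreated knock-in, and 410 and 396 in knock-in with LPS. The wild-type change was 0.042 (95% interval -0.050 to 0.13, limma adjusted p = 0.438). In the knock-in LPS libraries Eno1 was lower than in untreated knock-in by 0.18 (limma adjusted p = 0.00127). The difference between the LPS effects was -0.23 (limma adjusted p = 0.00340) and turned to 0.18 after quantile normalization (limma adjusted p = 0.0217). The row Gm5506, which RefSeq names Eno1b, a near-identical copy of Eno1, differed from the Eno1 row by at most 6 reads in any library. The same reads thus stand in both rows, and the level of Eno1 alone is uncertain.

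Ldha, lactate dehydrogenase A, which turns pyruvate into lactate, was at 418 and 385 in untreated wild type, 388 and 408 with LPS, 416 and 429 in untreated knock-in, and 475 and 478 in knock-in with LPS. Wild-type libraries with and without LPS overlapped, and the knock-in LPS libraries were above all others. The wild-type change was -0.012 (95% interval -0.11 to 0.087, limma adjusted p = 0.854). In the knock-in LPS libraries Ldha was higher than in untreated knock-in by 0.18 ± 0.048 on the log2 scale (limma adjusted p = 0.00335). The difference between the LPS effects, 0.19 (limma adjusted p = 0.0194), was 0.63 after quantile normalization. Its adjusted p was 0.0797 by edgeR and 0.0550 by limma without the filter, and it lay between 0.0544 and 0.0989 by limma without untreated wild-type replicate 1, wild-type LPS replicate 1, untreated knock-in replicate 1 or knock-in LPS replicate 2.

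Vegfa, the vascular growth factor and the one secreted product among the 10, showed the members' largest increase from untreated knock-in to knock-in LPS libraries. It was at 35.2 and 34.9 in untreated wild type, 59.5 and 51.7 with LPS, 31.8 and 33.2 in untreated knock-in, and 102 and 95.7 in knock-in with LPS. Both LPS groups lay above both untreated groups, and the knock-in LPS libraries above all others. The wild-type ratio was 1.59 (log2 change 0.65 ± 0.066, limma adjusted p = 7.82e-09) and the knock-in ratio 3.04 (1.58 ± 0.066, limma adjusted p = 7.23e-16). The difference between LPS effects was 0.93 ± 0.093 (limma adjusted p = 6.88e-09). Its sign and its call held under every alternative run, with values of 0.83 to 1.04. Stromal markers moved in the same libraries. The summed level of 8 of them was 14.3 to 15.7, 15.9 to 16.9 and 17.4 to 18.9 in the first 3 groups and 55.5 and 55.5 in knock-in with LPS, with Lum at or near 0 throughout. The collagen genes Col1a1, Col1a2 and Col3a1 made up most of it, at 18.7 ± 2.10, 20.05 ± 1.93 and 10.1 ± 0.105 in knock-in with LPS. Of the 6 stromal markers tested between the genotypes with LPS, 4 were higher in the knock-in and 2 lower, Pdgfrb (-0.75) and Thy1 (-0.36). Their part in the Vegfa result was not tested, and in bulk RNA more cells of a type and more RNA per cell cannot be told apart.

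Per kilobase of exon (GENCODE vM21 lengths), levels can be compared between genes. In untreated wild type the order was Ldha (212 ± 12.04 CPM per kb), Pgk1 (173 ± 22.4), Eno1 (169 ± 5.24), Pfkfb3 (24.5 ± 0.273), Hk1 (20.5 ± 0.479), Pfkp (17.1 ± 0.427), Hif1a (13.4 ± 0.150), Vegfa (9.95 ± 0.0523), Hk2 (7.91 ± 0.0414) and Slc2a1 (7.68 ± 0.00521). Pgk1 and Eno1, which adjoin in that order, overlapped between libraries, and the other neighbours did not. The order was the same in untreated knock-in cells. With LPS in wild type, Slc2a1 moved from the last place to the sixth (28.3 ± 1.15), just below Pfkp (28.9 ± 2.51), which it overlapped. In the knock-in with LPS, Slc2a1 stayed last (8.34 ± 0.00692) and Vegfa moved to the fifth place (28.1 ± 1.31).

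Between the untreated genotypes, none of the 10 genes passed limma, where 0.00839% of all genes (1 gene) were called higher and 0% lower. The largest difference was that of Hif1a, at -0.15 (95% interval -0.27 to -0.035, adjusted p = 0.253 by limma), with both knock-in libraries below both wild-type ones. Pgk1 was next, at 0.13 (95% interval 0.011 to 0.25, adjusted p = 0.326 by limma). These were the 2 members with an unadjusted p under 0.05, as against 1617 of all genes. edgeR also gave 2 such members and called 1 gene, and DESeq2 gave 1 such member and called 31 genes, none of them a member. Without untreated wild-type replicate 1, Pgk1 was called higher in the knock-in (0.27, limma adjusted p = 0.00449) and 483 genes passed.

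With LPS, all 10 members differed between the genotypes, 4 higher in the knock-in and 6 lower. Of all genes tested, 38.5% were higher and 36.8% lower, so the 4 higher members were near the background. Vegfa (0.82, limma adjusted p = 6.34e-11) and Hk2 (0.60, limma adjusted p = 2.41e-09) were the members most raised, and Ldha (0.26) and Hk1 (0.19) were raised by less. Slc2a1 (-1.73), Hif1a (-0.73) and Pfkp (-0.66) were the most lowered, followed by Pgk1 (-0.32), Pfkfb3 (-0.27) and Eno1 (-0.13, limma adjusted p = 0.00978). After quantile normalization, 3 members were lower and Pfkfb3 (0.13), Pgk1 (0.083) and Eno1 (0.26) took the opposite sign, and Pfkp was -0.44, Ldha 0.68 and Hk1 0.39. The call on Eno1 was also lost without knock-in LPS replicate 2 (-0.11, limma adjusted p = 0.101). This comparison uses the same LPS libraries as the comparisons with untreated cells, and its libraries differ in sex. The summed level of Tnf, Il1b, Cxcl2 and Nfkbia was 9410 to 9633 in wild type with LPS and 119 to 121 in the knock-in, against 81.9 to 91.9 in untreated cells. Its part in the members' values was not tested.

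Shares within enzyme and transporter families differed between the groups, which can come from either side of the share. Slc2a1, Slc2a3, Slc2a6, Slc2a8 and Slc2a9 were taken as the glucose transporters, per kilobase of exon. Slc2a8 and Slc2a9 were not in the family as first planned, and each share depends on which genes are summed. Slc2a1 made up 23.7% ± 1.15 of the sum in untreated wild type and 24.3% ± 0.686 with LPS. Slc2a6, a lysosomal transporter, went from 8.50% ± 0.677 to 58.2% ± 0.677. Slc2a8 went from 34.0% ± 1.01 to 8.83% ± 0.244 while its level per kilobase was 11.02 ± 0.868 and 10.3 ± 0.413. In the knock-in, Slc2a1 held 23.6% ± 1.07 untreated and 25.1% ± 0.618 with LPS, and Slc2a6 9.23% ± 1.09 and 9.55% ± 1.86. Pfkfb3 took 60.6% and 62.3% of its family in the 2 untreated wild-type libraries, a mean of 61.4%, 86.3% ± 0.133 in wild type with LPS, and 60.0% ± 0.0455 and 80.8% ± 0.0417 in the knock-in, mostly at the cost of Pfkfb4, which went from 26.9% to 8.64% and from 27.9% to 13.4%. Pfkp rose from 63.9% ± 1.56 to 74.5% ± 1.44 of the phosphofructokinases in wild type and was at 62.6% ± 0.876 and 60.9% ± 0.901 in the knock-in, where Pfkl, the liver form, went from 25.8% to 31.1%. Hexokinase transcripts were mostly Hk3 (81.7 to 84.1% of the family in the 4 groups), and Hk2 was at 4.78% ± 0.0388 in untreated knock-in and 6.32% ± 0.0828 with LPS. Ldha kept 96.1 to 97.6% of the lactate dehydrogenases. Eno1 went from 96.4% to 92.6% of the enolases in wild type, as Eno2, the neuronal form, went from 1.48% to 5.91%, with no fall in the level of Eno1 as deposited. These shares are descriptions over 2 libraries a group, for which an exact permutation test cannot reach 0.05.

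**Figure D3:**
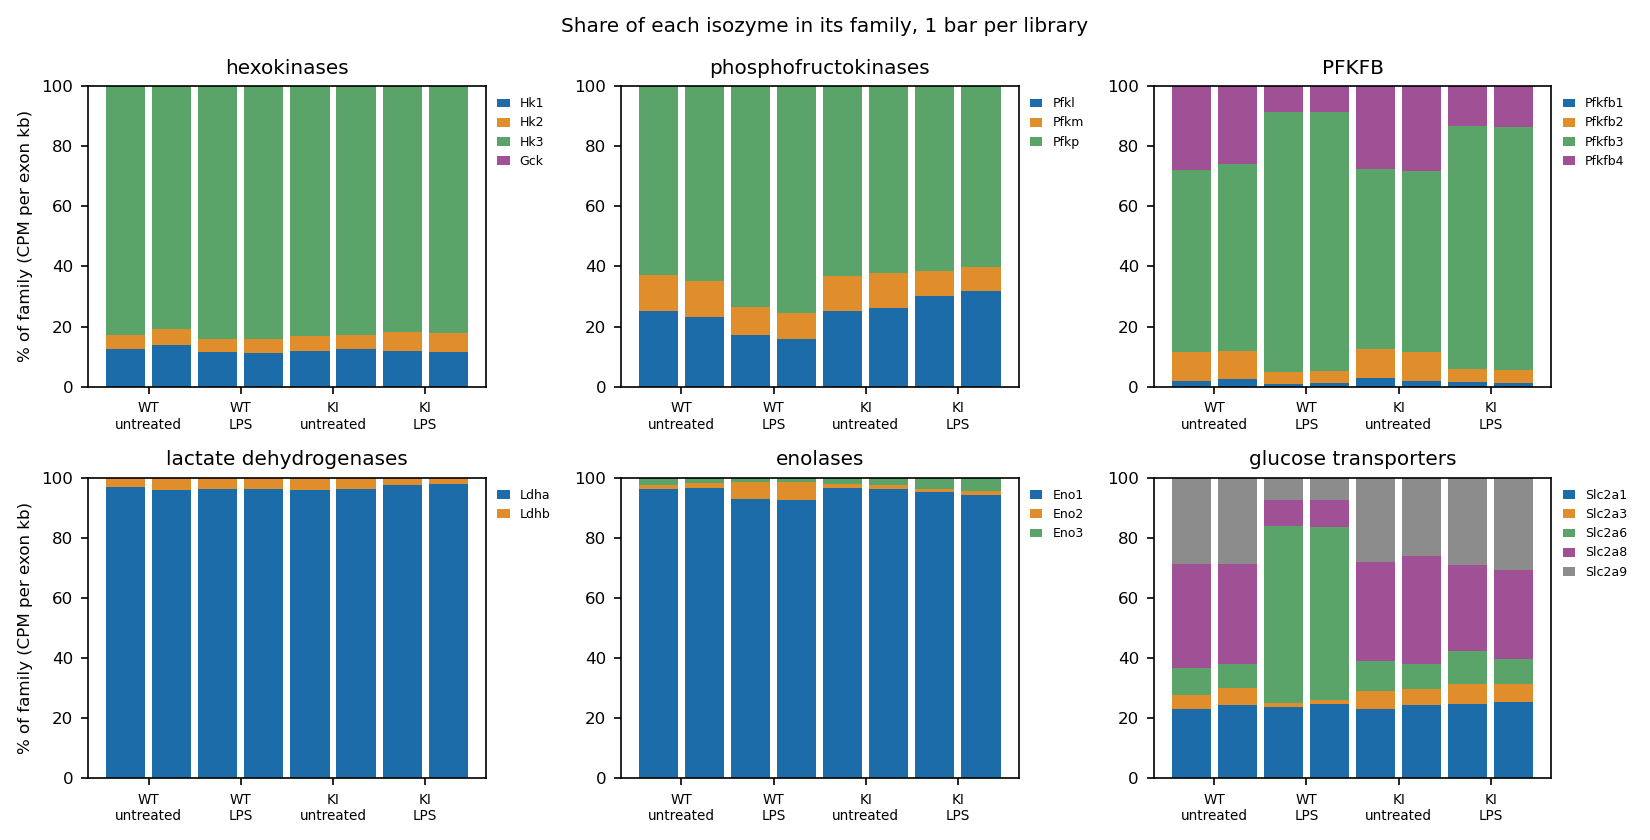
Share of each isozyme in its family, in percent of the summed TMM-scaled CPM per kilobase of exon, with 1 bar per library. WT is wild type and KI is knock-in. The glucose transporters are the 5 genes named in the panel. Slc2a6 takes 58.7% and 57.7% of their sum in the wild-type LPS libraries and 8.23 to 10.9% in the knock-in libraries.

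The rest of the pathway was followed through lists of related genes. Of 25 tested other glycolysis enzymes and transporters of glucose or lactate, LPS in wild type raised 6 and lowered 7 (5 and 11 after quantile normalization; median -0.017, beside -0.032 over all genes). As shares these are 24% and 28%, near the 26.8% and 30.7% of all genes. The largest were Slc2a6 (5.91 ± 0.759 to 145 ± 0.111, log2 change 4.41), Eno2 (7.22 ± 0.0283 to 30.9 ± 0.940, log2 change 1.96), Pfkfb4 (-0.78) and the lactate exporter Slc16a3 (0.58). In the knock-in 5 were higher and 11 lower (median -0.10), with Eno3 (0.58), Ldhb (-0.53), Bpgm (0.40) and Pfkfb2 (-0.39) the largest. These knock-in shares are 20% and 44%, beside 28.5% and 28.3% of all genes. Slc2a6 and Eno2, like Slc2a1, were high in the wild-type LPS libraries and not in those of the knock-in, at 6.80 ± 1.48 and 5.15 ± 0.327. With LPS, 8 of the 25 were higher and 10 lower in the knock-in (14 and 8 after quantile normalization), including Slc2a6 (-4.24) and Eno2 (-2.38). The shares as deposited are 32% and 40%, beside 38.5% and 36.8% of all genes.

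Of 16 tested HIF subunits and regulators of oxygen sensing, 6 rose and 4 fell with LPS in wild type. These counts were 6 and 2 with median-of-ratios scaling, and 5 and 6 after quantile normalization. In the knock-in 6 were higher and 2 lower. The wild-type shares as deposited are 37.5% and 25%, beside 26.8% and 30.7% of all genes. Those of the knock-in are 37.5% and 12.5%, beside 28.5% and 28.3%. Arnt, the partner of Hif1a, did not pass in either (-0.051 and 0.13, limma adjusted p = 0.551 and 0.125). Cited2, which competes with HIF-1 for its coactivators and is itself a HIF target, rose from 104 ± 2.92 to 528 ± 1.72 in wild type (log2 change 2.34) and was at 105 ± 2.68 and 102 ± 7.44 in the knock-in. Siah2 (1.35), a ubiquitin ligase for prolyl hydroxylases, and Ube2s (0.78) rose in wild type, and Ep300 (-0.97), a coactivator, fell. In the knock-in the largest change was that of Vhl (0.52), the ligase subunit that binds hydroxylated HIF alpha, at 21.6 ± 0.0671 and 31.3 ± 0.458, followed by Rbx1 (0.27), Crebbp (0.23) and Ube2s (-0.23). With LPS, 7 were higher and 6 lower in the knock-in, with Cited2 at -2.36, Vhl at 1.10 and Siah2 at -1.07. The with-LPS counts were 5 and 6 with median-of-ratios scaling, and 8 and 5 after quantile normalization. As deposited, the with-LPS shares are 43.8% and 37.5%, beside 38.5% and 36.8% of all genes.

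Other known HIF-1 targets were called about as often as all genes. Of 23 tested, 6 rose and 8 fell in wild type (median -0.048), and 7 were higher and 6 lower in the knock-in (median -0.023). The wild-type counts were 7 and 6 with median-of-ratios scaling, and 6 and 10 after quantile normalization. The shares as deposited are 26.1% and 34.8% in wild type, beside 26.8% and 30.7% of all genes. In the knock-in they are 30.4% and 26.1%, beside 28.5% and 28.3%. In wild type the largest were Nos2 (0.269 ± 0.250 to 10.1 ± 2.90, log2 change 3.11), Cdkn1a (253 ± 5.82 to 1504 ± 101, log2 change 2.56), Adm (2.00), which had 6 reads over both untreated wild-type libraries, and Cxcr4 (-1.48). In the knock-in the largest were P4ha2 (-1.50), the transferrin receptor gene Tfrc (-1.34), Cxcr4 (1.11) and Pdk1 (-1.04). Cxcr4, a chemokine receptor gene, took opposite directions: it was at 171 ± 12.1 and 60.3 ± 2.15 in wild type without and with LPS, and at 179 ± 3.05 and 387 ± 4.59 in the knock-in.

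**Figure D4:**
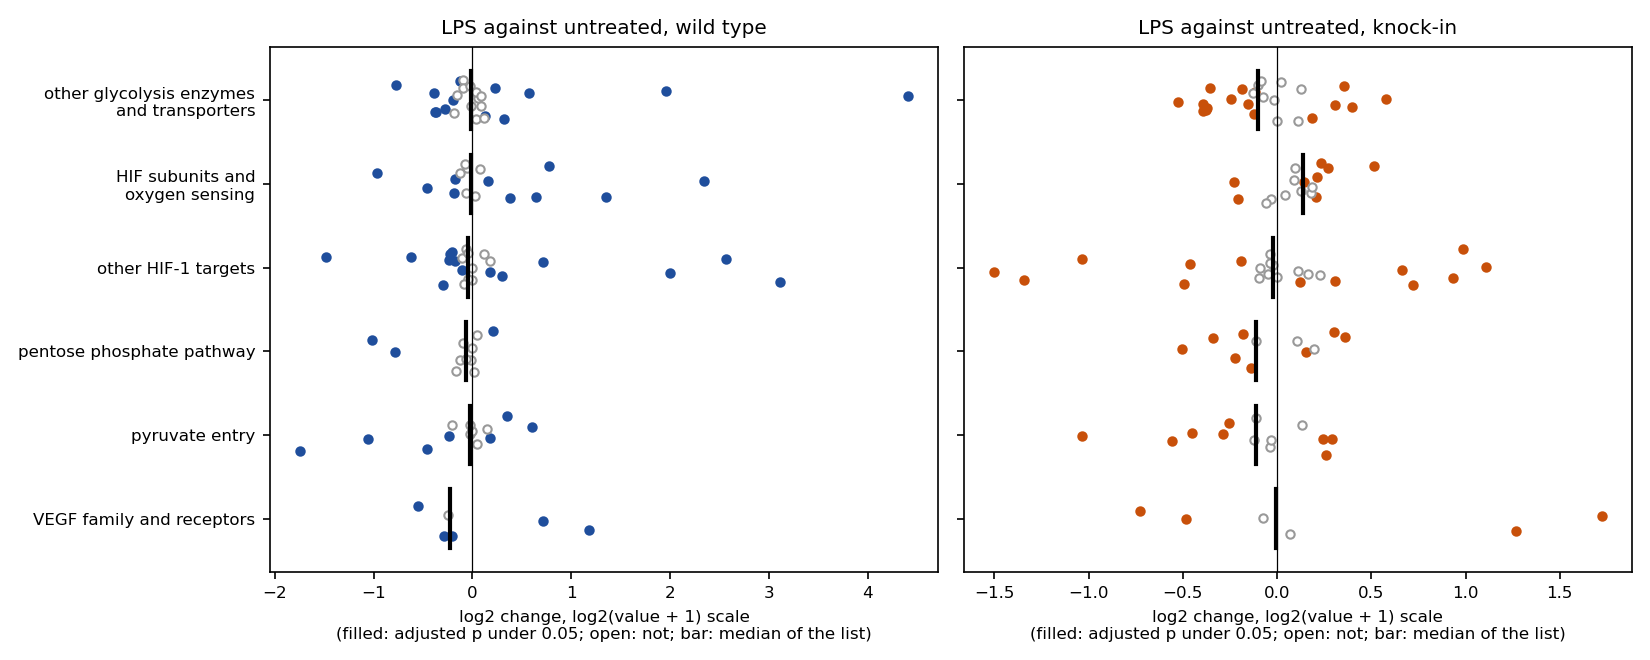
Log2 changes with LPS on the log2(value + 1) scale for the tested genes of 6 lists around the pathway, in wild type (left) and knock-in (right). Filled points passed a limma adjusted p of 0.05, open points did not, the vertical bar is the list's median, and the vertical position within a list is arbitrary. Medians lie between -0.23 and 0.14, while single genes reach 4.41 in wild type.

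The side branches of glycolysis were the pentose phosphate pathway and pyruvate entry into mitochondria. Of 11 pentose phosphate genes, 1 was higher (Pgd, 0.20, which turned to -0.21 after quantile normalization) and 2 lower (Shpk, -1.01, and H6pd, -0.78). In the knock-in 3 were higher and 5 lower, with the transketolase gene Tkt at -0.51. The pentose phosphate shares are 9.09% and 18.2% in wild type, beside 26.8% and 30.7% of all genes. Those of the knock-in are 27.3% and 45.5%, beside 28.5% and 28.3%. Of 13 genes for pyruvate entry into mitochondria, 3 rose and 4 fell in wild type, led by the pyruvate dehydrogenase phosphatase genes Pdp1 (48.9 ± 1.74 to 13.9 ± 0.196, log2 change -1.74) and Pdp2 (-1.06). In the knock-in 3 were higher and 5 lower, led by Pdk1, the kinase that shuts pyruvate dehydrogenase and a known HIF-1 target (34.8 ± 1.53 to 16.4 ± 0.177, log2 change -1.04). For pyruvate entry the shares are 23.1% and 30.8% in wild type, and 23.1% and 38.5% in the knock-in, beside the same all-gene shares. Pdp1 (2.13) and Pdk1 (-0.99) also differed between the genotypes with LPS. After quantile normalization, the wild-type counts became 0 higher and 6 lower for the pentose phosphate genes, and 1 and 5 for pyruvate entry.

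Of 6 tested genes of the VEGF family and its receptors other than Vegfa, 2 rose (Nrp2, and Pgf from 8 reads in the untreated libraries) and 3 fell (Kdr and Vegfb among them) in wild type, and 2 were higher and 2 lower in the knock-in. The wild-type shares are 33.3% and 50%, beside 26.8% and 30.7% of all genes. Those of the knock-in are 33.3% and 33.3%, beside 28.5% and 28.3%. Kdr, the main receptor of Vegfa, was at 8.02 and 8.12 in untreated wild type, 4.80 and 5.58 with LPS, 7.79 and 6.81 in untreated knock-in, and 26.3 and 26.3 in knock-in with LPS. Its change was -0.55 in wild type (-0.37 after quantile normalization, limma adjusted p = 4.69e-05 as deposited) and 1.72 in the knock-in (limma adjusted p = 4.47e-13), so Kdr and Vegfa were both highest in the knock-in LPS libraries. Kdr is also an endothelial marker. The summed level of 4 endothelial markers, Kdr included, was 16.0 to 17.1, 15.7 to 16.3, 16.2 to 17.0 and 38.3 to 38.6 in the 4 groups, while Cdh5, the defining endothelial cadherin, was at 0.408 to 1.14 and Tek at 0 to 0.116. Kdr itself made up most of that difference. Pecam1 was at 8.01 ± 0.927, 9.97 ± 0.00341, 8.61 ± 0.413 and 11.04 ± 0.504, higher with LPS in both genotypes, and did not pass between the genotypes with LPS (0.13, limma adjusted p = 0.235). Between the untreated genotypes, 0 of the 93 tested genes of these 6 lists passed by limma, edgeR or DESeq2, and 14, 15 and 13 of them had an unadjusted p under 0.05. Of all 11919 genes, 1617, 1630 and 1263 had such a p, in the same order of methods.

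Across the 8 libraries, the genes whose pattern was most like that of Hif1a among 9265 compared were Mat2a, Zfp36l1 and Golph3, with Pearson r of 0.996, 0.995 and 0.995. Zfp36l1 went from 156.5 to 361 in wild type and from 137 to 166 in the knock-in. For Slc2a1 they were Rab12, Fam108c and Cdkn1a, each with r of 0.999. Rab12 went from 48.7 to 118 in wild type and was at 49.1 and 50.8 in the knock-in. These correlations are descriptions, since the 8 libraries fall into 4 groups and share their group differences.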

How the data were processed

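RNA-seq of 8 libraries in 4 groups, taken from the labels, was analysed. Reads were processed with TopHat2 2.0.9, edgeR and bedtools on mm9, per the submitters' processing notes. The sources used here do not give the counting rule, the annotation or any use of strand. The deposited table holds a normalized signal, in the form of TMM-scaled CPM: from the values, 100% are whole reads within 0.001, and 5996 genes are at 0 throughout. Among counts up to 20, 70.2 to 72.0% were even, and read pairs may have been counted as 2.

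Tests used limma 3.58.1 (R 4.3.3) on log2(value + 1), 2-sided, over 11919 genes at 1 or more in at least 2 libraries, in 1 model of 4 group means (4 residual and 19.1 prior degrees of freedom, variance trend), with Benjamini-Hochberg adjustment per comparison. The scale understates changes of low genes. Alternatives included edgeR 4.0.16 and DESeq2 1.42.0 on recovered reads. The fit was checked on simulated data with 200 changed genes. Far more genes were called with LPS here, so that check does not bear on the choice of scaling. The members and lists were chosen with earlier results of these data known. A gene of the list of HIF-1 targets is not reported here and is left out of its counts. Named genes are the members and, per list and comparison, up to 4 called genes with the largest change and no overlap between groups. Exon lengths came from GENCODE vM21 (GRCm38), another build than mm9, so gene coordinates are given only for RefSeq promoters.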

Additional observations from a re-analysis of the deposited data

Results flagged for a closer look

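For each of the 10 genes the LPS effect differed between the genotypes by limma's interaction test, which is why they are listed here. The differences (knock-in minus wild type, log2) were -1.78 for Slc2a1, -0.70 for Pfkp, -0.58 for Hif1a, -0.45 for Pgk1, -0.23 for Eno1 and -0.22 for Pfkfb3, and 0.17 for Hk1, 0.19 for Ldha, 0.56 for Hk2 and 0.93 for Vegfa. Their limma adjusted p ran from 9.50e-14 for Slc2a1 to 0.0421 for Hk1. The values of Eno1 and Pfkfb3 changed sign after quantile normalization (0.18 and 0.19) and Pgk1 did not pass (-0.038). Hk1 did not pass by edgeR, DESeq2 or after median-of-ratios scaling, nor Ldha by edgeR. Over all genes tested, 31.8% were called in each direction, and the knock-in LPS libraries came from animals of another sex. Genotype and sex cannot be told apart in these differences.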

How the results depend on the processing

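Of 800 results (10 genes, 5 comparisons, each alternative), 748 kept their direction and side of the threshold. Another 17, which passed neither as reported nor under the alternative, changed sign (10 with 1 library left out), to at most 0.057 in size. Of the other 35, 7 that passed under at least 1 of the 2 settings changed sign, each under quantile normalization. In wild type with LPS, it made members lower 4 in place of 0 (Hk1 -0.30, Ldha -0.43, with Pgk1 at -0.22 and Eno1 at -0.37 reversed). Between genotypes with LPS it left 3 lower (Pfkfb3 0.13, Pgk1 0.083 and Eno1 0.26 reversed), and in the interaction 3 lower (Pfkfb3 0.19 and Eno1 0.18 reversed). The cause was not tested. The interaction had 2 members higher by edgeR, and 2 to 3 with 1 library left out, with Hk1 at an adjusted p of 0.143 by edgeR, 0.0899 by DESeq2 and 0.0845 by limma after median-of-ratios scaling. In untreated cells the genes called were 1 in the reported limma fit, 0 without a filter (1735 at an unadjusted p under 0.05), 18 with robust variances, 31 by DESeq2, 12 from only the groups compared, 2 without both knock-in LPS libraries (added after seeing the data), and 1 to 483 with 1 library left out, where 0 to 1 members were higher. Leaving out 1 library assumes that the lone one varies like the other groups. The same replicate numbers did not deviate together (correlations of replicate differences -0.108 to 0.135 over 10065 genes). With 2 libraries a group this cannot show whether equal numbers share animals or culture days, and the labels do not say. With the replicate block no member's call changed, and the genes called were 6857, 6736, 1, 8962 and 7582 in the 5 comparisons. With 2 libraries a group, the members' standard errors in limma were 0.045 to 0.069 for the differences of 2 groups.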
